A study of Mus musculus with 16 samples.

Results

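The kallikrein-kinin and renin-angiotensin systems are represented here by 9 genes: the kinin precursors Kng1 and Kng2, the kallikrein gene Klkb1, the kinin receptors Bdkrb1 and Bdkrb2, the angiotensin precursor Agt, the peptidase Ace and the angiotensin receptors Agtr1a and Agtr2. They were picked with earlier results of these same libraries known, so their own differences are given as descriptions, without p-values. Of the 9, 8 are described among the 46078 Ensembl gene identifiers of the count table, and Klkb1 was not analysed here. A further 43 genes of the same pathways, listed by role from textbook knowledge and not by how they moved, were followed beside them. Earlier results of these data were known when that list was made.

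RNA was sequenced from brown fat (BAT), a tissue rich in mitochondria that produces heat, and from inguinal white fat (WAT), a subcutaneous depot that stores lipid. All mice were female C57BL/6 wild types, bred and weaned at 30 °C, 16 weeks old and without food for 2 to 3 h at collection. The BAT_30C and WAT_30C groups stayed at 30 °C. The BAT_5C and WAT_5C mice spent 2 weeks at 18 °C, beginning at an age of 10 to 12 weeks, followed by 3 weeks at 5 °C. Each of the 4 groups holds 4 libraries. The labels do not state that the libraries came from separate mice, so p-values measure the spread between these libraries only, which may be technical.

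Library totals ran from 54264023 to 71289020 counts. In 4 of the 8 BAT libraries a source label names the other temperature, and the tissue label of the BAT libraries names an inguinal depot. In CPM, which are counts scaled to a common library size, 5 brown adipocyte markers summed to 2620 or more in every BAT library and to 22.5 or less in every WAT_30C library. WAT_5C replicate 1 stands apart: although its label says female, it had 3 counts of Xist, which ranged from 11136 to 88934 in the remaining 15, and 17183 counts of 4 Y-linked genes, which ranged from 3 to 45 there. Temperature effects of the tested members in WAT are given with and without it, and other results that use it are so given in part.

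Kininogens are secreted proteins from which kallikreins cut bradykinin and related kinins, short peptides that widen vessels and raise their permeability. The B2 receptor, encoded by Bdkrb2, is present in many resting tissues, whereas the B1 receptor, encoded by Bdkrb1, is typically induced by injury or inflammation. Angiotensinogen, encoded by Agt, is cut by renin and then by angiotensin-converting enzyme, encoded by Ace, into angiotensin II, which acts mainly through the AT1 receptor (Agtr1a, Agtr1b) and also through the AT2 receptor (Agtr2). The same converting enzyme degrades bradykinin and so links both systems. Adipocytes are a known source of angiotensinogen outside the liver, and the mouse genome carries a pair of kininogen genes side by side.

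The sequences shown first are those that bear on how the kininogen counts can be read and on the genes with the clearest patterns. Kng1 (chromosome 16, 23057865 to 23082078, plus strand) and Kng2 (chromosome 16, 22985854 to 23029482, minus strand) are near neighbours in GRCm38, the coordinates being those of the GENCODE M21 gene models. Their transcripts are identical over 194 bases, of which the last 114 bases, from the start codon on, are printed here in lower case because reads from them cannot be assigned to either gene.
Kng1 and Kng2 shared coding start: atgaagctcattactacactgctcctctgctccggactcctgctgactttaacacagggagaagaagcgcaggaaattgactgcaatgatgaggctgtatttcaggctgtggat
Of all 50-base windows, 17.18% of those in Kng1 transcripts also occur in Kng2 transcripts, and 19.39% of those in Kng2 transcripts occur in Kng1.

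The 250 bases before the RefSeq start (GRCm38.p6) of Kng2, of Agt and of Cpn2, the gene with the likest pattern to Kng2, were read 5′ to 3′ on the strand of the gene. The Kng2 stretch is chr16:23029102-23029351, minus strand, and lies in the first intron of longer annotated Kng2 transcripts. The Agt stretch is chr8:124569707-124569956, minus strand, and the Cpn2 stretch is chr16:30267533-30267782, minus strand. Capitals mark matches to the motifs searched.
Kng2: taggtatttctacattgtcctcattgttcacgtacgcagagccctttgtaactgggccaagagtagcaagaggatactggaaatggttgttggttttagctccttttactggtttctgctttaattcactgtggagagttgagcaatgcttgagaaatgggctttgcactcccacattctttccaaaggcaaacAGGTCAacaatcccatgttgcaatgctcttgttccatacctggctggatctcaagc
Agt: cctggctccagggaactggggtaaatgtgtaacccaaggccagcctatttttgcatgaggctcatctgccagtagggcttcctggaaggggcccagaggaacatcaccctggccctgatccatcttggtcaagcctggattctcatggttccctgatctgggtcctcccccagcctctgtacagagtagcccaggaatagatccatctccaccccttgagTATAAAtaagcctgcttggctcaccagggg
Cpn2: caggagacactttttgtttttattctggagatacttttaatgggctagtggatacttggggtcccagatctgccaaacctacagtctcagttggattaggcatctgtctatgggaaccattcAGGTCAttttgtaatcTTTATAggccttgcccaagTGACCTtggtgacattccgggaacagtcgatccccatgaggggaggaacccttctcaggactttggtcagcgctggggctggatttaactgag
The motifs searched on both strands were the cyclic AMP response element TGACGTCA, found in 1.5% of 32851 promoter stretches of that length, and its half-site TGACG, which lies within it and was found in 17.8%. The nuclear receptor half-site AGGTCA was found in 14.0% of them and the palindromic E-box motif CACGTG in 6.0%. The core promoter motif TATAAA was found in 12.4%, and the upstream promoter motif CCAAT in 33.8%. Positions are counted from the start, so that -1 is the base before it. Kng2 holds AGGTCA at -56 and Agt holds TATAAA at -30. Cpn2 holds AGGTCA at -128 on the strand shown, and on the other strand AGGTCA at -93 and TATAAA at -112. The GC content of the stretches is 44.4% for Kng2, 55.6% for Agt and 47.6% for Cpn2. These matches are descriptions of the letters and were not tested for binding.

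Kng2 was the most abundant member in BAT per length, at 25.9 CPM per kb of transcript in BAT_30C and 73.5 CPM per kb in BAT_5C. In WAT it stood at 0.0894 CPM per kb at 30 °C and 0.561 CPM per kb at 5 °C, below Ace, Agtr1a and Agt. Agt reached 3.58, 1.24, 10.4 and 6.22 CPM per kb in BAT_30C, BAT_5C, WAT_30C and WAT_5C. Ace reached 4.12, 6.5, 11.1 and 18.0 CPM per kb in the same order, and Agtr1a 4.54, 4.7, 10.6 and 19.5 CPM per kb. Kng1, Agtr2 and both kinin receptors stayed at 0.362 CPM per kb or less in every group. The highest member per length was therefore a kininogen in BAT, whereas in WAT the highest were the angiotensin precursor, the peptidase and the AT1 receptor.

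**Figure D1:**
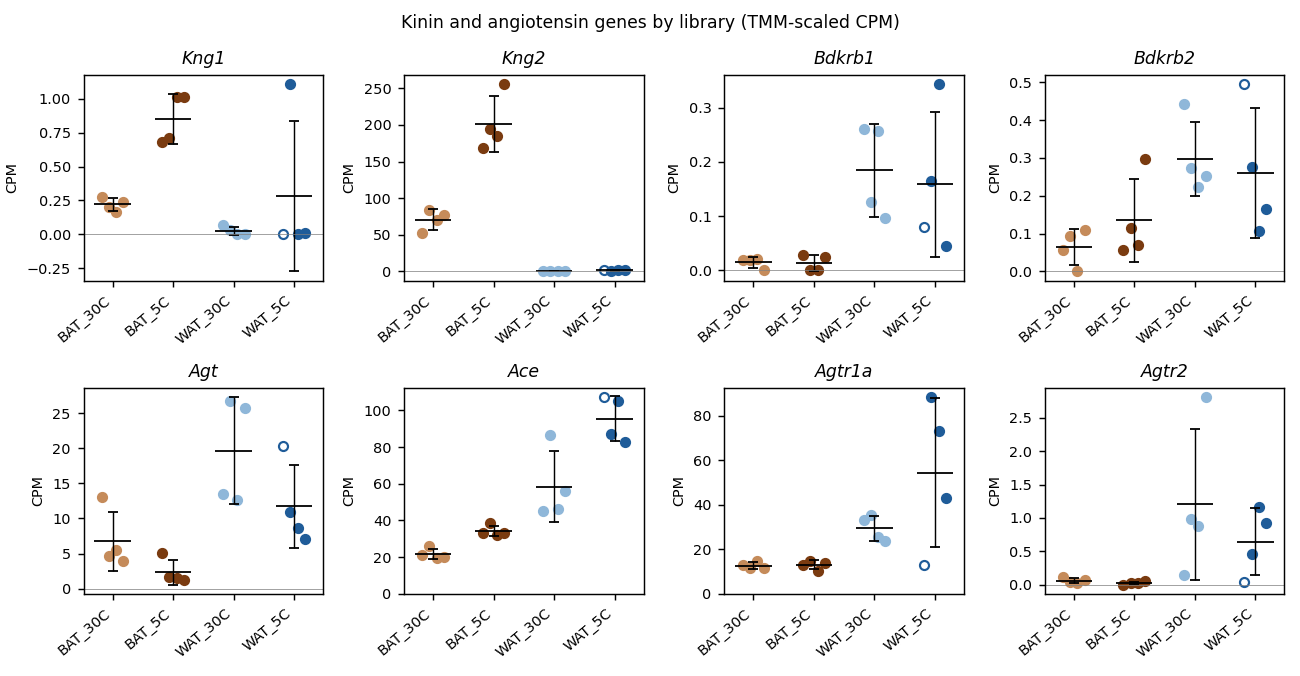
CPM of the 8 members in each library, by group, on linear axes; horizontal lines with bars are means ± SD over 4 libraries and the open circle is WAT_5C replicate 1. Kng2 sits between 51.8 and 256 CPM in all BAT libraries and at 2.55 CPM or less in all WAT libraries, while Ace, Agt and Agtr1a are generally higher in WAT.

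Kng2, the main kininogen here, was at 51.8, 84.1, 70.8 and 76.3 CPM in the BAT_30C libraries and at 168, 194, 185 and 256 CPM in the BAT_5C libraries. Every cold library lay above every warm one. The mean went from 70.7 ± 13.8 to 201 ± 38.1 CPM (SD, n = 4), a log2 difference of 1.51 ± 0.17 (SE), or 2.84-fold. In bulk tissue, more cells of a type and more RNA per cell cannot be told apart. In WAT, Kng2 was at 0.115, 0.241, 0.167 and 0.454 CPM at 30 °C and at 1.54, 0.562, 2.55 and 1.49 CPM at 5 °C. The groups again do not overlap, at a far lower level: the log2 difference was 2.62 ± 0.56, and 2.62 ± 0.58 without WAT_5C replicate 1.

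The brown adipocyte markers moved with Kng2 in both tissues. In BAT the 5 genes summed to between 2620 and 4770 CPM at 30 °C and to between 16100 and 17500 CPM at 5 °C, with 3 of them called higher and 1 lower by edgeR. In WAT edgeR called 0 of the 4 that could be tested, and 3 of 4 without WAT_5C replicate 1, all higher. Their sum in WAT, with all 5 detected, was 10.7 to 22.5 CPM in WAT_30C and 459, 55.5, 649 and 274 CPM in WAT_5C replicates 1 to 4. Over these 4 cold libraries Kng2 and the marker sum have the same order, with replicate 3 highest and replicate 2 lowest. In BAT_30C, BAT_5C and WAT_30C the orders differ. In BAT_5C, Kng2 was lowest in replicate 1, at 168 CPM, where the marker sum was 17400 CPM, against 16100 CPM in replicate 2. The part of brown adipocytes in these Kng2 values was not tested.

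Kng1, the second kininogen gene, had 15, 11, 8 and 11 counts in BAT_30C and 24, 31, 43 and 41 counts in BAT_5C. That is 0.22 ± 0.0491 against 0.853 ± 0.185 CPM (SD, n = 4), a log2 difference of 1.94 ± 0.29, with no overlap. It passed the filter on low counts in BAT through the cold libraries, which favours a higher value, and it was not called when all 16 libraries shared one fit. Its count was only 0.229 to 0.535% of the Kng2 count in BAT_30C and 0.364 to 0.547% in BAT_5C, and 17.18% of its transcript windows match Kng2. Whether its BAT counts come from Kng1 or from Kng2 reads cannot be told apart in these counts. In WAT it had 7, 3, 0 and 0 counts at 30 °C and 0, 101, 0 and 1 counts at 5 °C, so a single library holds nearly all of it. That library, WAT_5C replicate 2, was also the highest of all 16 for 7 of 8 hepatocyte markers, with a marker sum of 69.0 CPM against 0.212 to 60.4 CPM elsewhere, and the part of liver RNA in its Kng1 value was not tested.

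Klkb1 encodes plasma prekallikrein, the protease that releases bradykinin from high-molecular-weight kininogen. It was not analysed here.

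The kinin receptors lie next to each other on chromosome 12, Bdkrb2 at 105563226 to 105595237 and Bdkrb1 at 105603085 to 105605428, both on the plus strand. Bdkrb1 had 1, 1, 1 and 0 counts in BAT_30C, 1, 0, 0 and 1 in BAT_5C, 27, 12, 23 and 8 in WAT_30C and 5, 15, 29 and 4 in WAT_5C. It was thus detected at a few counts per library in WAT and at the edge of detection in BAT. Its summed count scaled to library size was 12.8 times as high in WAT as in BAT at 30 °C (95% Clopper-Pearson interval 4.19 to 63.3) and 13.1 times at 5 °C (3.45 to 111), intervals that cover counting error only. Bdkrb2 had 3, 5, 0 and 5 counts in BAT_30C, 2, 5, 3 and 12 in BAT_5C, 46, 26, 20 and 21 in WAT_30C and 31, 25, 9 and 15 in WAT_5C. In WAT neither receptor separated the temperatures: the log2 difference was -0.24 ± 0.63 for Bdkrb1 and -0.24 ± 0.48 for Bdkrb2, and -0.05 ± 0.64 and -0.73 ± 0.41 without WAT_5C replicate 1. In BAT both had too few counts for a test of temperature.

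Agt (chromosome 8, 124556534 to 124569706, minus strand) ran opposite to Kng2. It was at 13.0, 4.58, 5.49 and 4.0 CPM in BAT_30C and at 5.01, 1.64, 1.58 and 1.19 CPM in BAT_5C. The cold libraries were lower on average, 2.35 ± 1.78 against 6.78 ± 4.22 CPM (SD, n = 4), but the groups overlap, since the highest cold library exceeds the lowest pair of warm ones. The log2 difference was -1.53 ± 0.52. It no longer passed the threshold without BAT_30C replicate 1 (-0.98) or without BAT_5C replicate 2 (-1.38), 3 (-1.37) or 4 (-1.31), and stood at -2.67 in the 4 libraries whose labels match.

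BAT_30C replicate 1, the highest Agt library in BAT, also had a hepatocyte marker sum of 5.22 CPM, against 0.304 to 0.364 CPM in the other BAT_30C libraries and 0.212 to 0.982 CPM in BAT_5C, where Fga and Apoh were at 0 counts. Alb alone gave 3.87 CPM of the 5.22, and Fgb and Apoh were higher in another BAT_30C library. All 8 hepatocyte markers were detected in BAT_30C, and none could be tested in BAT. The summed CPM of 6 fibroblast and preadipocyte markers ranged over 578 to 708 in BAT_30C and over 389 to 553 in BAT_5C, and 4 of the 6 were lower in the cold by the edgeR test. The parts of these cells in the Agt values were not tested.

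In WAT, Agt was at 13.5, 26.8, 12.7 and 25.7 CPM at 30 °C and at 20.3, 10.9, 8.67 and 7.06 CPM at 5 °C. WAT_5C replicate 1 lies within the warm range and the other 3 cold libraries lie below it. The log2 difference was -0.77 ± 0.39 with that library and -1.18 ± 0.32 without it, where the cold mean was 8.89 ± 1.95 CPM (SD, n = 3) against 19.7 ± 7.59 CPM (SD, n = 4). The hepatocyte marker sum of WAT_5C replicate 1 was 60.4 CPM, against 11.9 to 21 CPM in WAT_30C and 69.0, 19.5 and 19.9 CPM in WAT_5C replicates 2, 3 and 4. Alb alone gave 60.2 CPM of that 60.4, and each of the other hepatocyte markers was at 0.128 CPM or less in replicate 1. The part of liver RNA in its Agt value was not tested. Fibroblast and preadipocyte markers summed to 1210 to 2080 CPM in WAT_30C and 1970 to 2490 CPM in WAT_5C, with 0 of 6 called by edgeR. The adipocyte markers summed to 2880 to 5000 CPM in WAT_30C and 4480 to 16800 CPM in WAT_5C, with 0 of 6 called. Without WAT_5C replicate 1 their cold range was 4480 to 6640 CPM. The parts of these cells in the WAT values of Agt were not tested either.

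Ace (chromosome 11, 105967945 to 105989964, plus strand), the peptidase shared by both systems, was at 21.3, 25.9, 19.6 and 20.3 CPM in BAT_30C and 33.4, 38.6, 32.3 and 33.1 CPM in BAT_5C. All cold BAT libraries exceeded all warm ones, and the log2 difference was 0.66 ± 0.10, or 1.58-fold. In WAT it was at 44.9, 86.8, 46.4 and 55.8 CPM at 30 °C and 107, 87.1, 105 and 82.8 CPM at 5 °C. One warm library, replicate 2, reaches the cold range, so the groups overlap, with a log2 difference of 0.68 ± 0.22, and 0.61 ± 0.23 without WAT_5C replicate 1. Endothelial cells carry much of the converting enzyme of the body. The summed CPM of 8 endothelial markers ranged over 1500 to 1780 in BAT_30C and over 1610 to 1690 in BAT_5C, with 4 called higher and 3 called lower in the cold by edgeR, and to 498 to 626 CPM in WAT_30C and 557 to 879 CPM in WAT_5C, with 0 of 8 called. The highest WAT sum, 879 CPM, was that of WAT_5C replicate 1, and without it the cold range was 557 to 631 CPM. An antisense gene model, Gm11651, covers 5.58% of the Ace exon length and had 0 to 3 counts per library.

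Agtr1a (chromosome 13, 30336441 to 30382867, plus strand), which encodes the main AT1 receptor of the mouse, was at 12.8, 11.6, 14.7 and 11.6 CPM in BAT_30C and 12.9, 15, 10.4 and 14.1 CPM in BAT_5C. Warm and cold values are interleaved. The log2 difference was 0.05 ± 0.13 and turns to -0.33 when libraries are scaled by their totals alone. In WAT it was at 33.3, 35.2, 25.4 and 23.9 CPM at 30 °C and 12.9, 88.5, 73.0 and 43.1 CPM at 5 °C. WAT_5C replicate 1 is the lowest WAT library and the other 3 cold libraries are the highest. The log2 difference was 0.86 ± 0.50 with it and 1.18 ± 0.25 without it, when the cold mean was 68.2 ± 23.1 CPM (SD, n = 3) against 29.4 ± 5.62 CPM (SD, n = 4). Other marker sums also set replicate 1 apart. Its mammary epithelium markers summed to 9.61 CPM, against 811 to 874 CPM in the other WAT_5C libraries, and its T and natural killer cell markers to 87.3 CPM, against 323 to 388 CPM. Its adipocyte markers summed to 16800 CPM, against 4480 to 6640 CPM, and its white adipocyte markers to 266 CPM, against 29.2 to 84.0 CPM, while its fibroblast and preadipocyte markers, at 2000 CPM, lay within 1970 to 2490 CPM of the others. The 6 skeletal muscle markers gave 5240 CPM in replicate 1 and 7.8, 68.0 and 177 CPM in replicates 2, 3 and 4. Other groups also spread widely in muscle sums. WAT_30C libraries spanned 88.3 to 7600 CPM. The lowest and highest BAT_30C sums were 1.88 and 1140 CPM, and those of BAT_5C were 1.58 and 1790 CPM. The part of cell makeup, muscle included, in the Agtr1a values was not tested.

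Agtr2 (chromosome X, 21484544 to 21489164, plus strand), the AT2 receptor gene, was at 0.144, 0.986, 0.882 and 2.81 CPM in WAT_30C and 0.032, 0.452, 1.16 and 0.925 CPM in WAT_5C. The groups overlap widely, and the log2 difference of -0.92 ± 0.97, or -0.54 ± 0.78 without WAT_5C replicate 1, is within its error. It became 0.30 with limma-voom. In BAT it did not exceed 0.111 CPM in any library.

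In BAT, 4 of the 5 tested members differed between 5 °C and 30 °C by the edgeR quasi-likelihood test at a Benjamini-Hochberg adjusted p under 0.05: Kng1, Kng2 and Ace were higher and Agt was lower. Bdkrb1, Bdkrb2 and Agtr2 had too few counts to be tested. Of all 16213 genes tested, 59.5% were called, 29.2% higher and 30.3% lower, and since the members were picked on such values nothing is read from their count. Kng1, Kng2 and Ace had groups that did not overlap. The share of all genes with such groups was not counted in any comparison, so nothing is read from how many members had them. With libraries scaled by totals alone the median of all genes moves by -0.38, and higher calls go from 49.1% to 20.8% of all calls. The 4 members were called under that scaling too, with log2 differences of 1.56 for Kng1, 1.13 for Kng2, 0.285 for Ace and -1.93 for Agt.

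In WAT, 0 of the 7 tested members were called by edgeR. At an unadjusted p under 0.05 there were 2. Nothing is read from counts at that level, since the share of all genes there was not taken. Over all 18975 genes edgeR called 0.0632%, 0.0632% higher and 0.0% lower. DESeq2 called 1 member, beside 843 of all genes higher and 276 lower. Limma-voom called 2 members, beside 1392 of all genes higher and 876 lower. Without WAT_5C replicate 1, edgeR again called 0 of 7, with 4 at an unadjusted p under 0.05, beside 2.11% of all genes, 1.84% higher and 0.274% lower. The members whose groups then did not overlap were Kng2, Agt and Agtr1a, with no share of all genes to set beside them. Kng2 was called in WAT without WAT_5C replicate 2, at a log2 difference of 2.90. Library totals move the WAT median of all genes by -0.26.

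The difference between the temperature effects, WAT minus BAT, was called for 0 of 8 members with edgeR, where 1 had an unadjusted p under 0.05 and DESeq2 and limma-voom called 0 each. It was called for 20.8% of all genes, 12.5% higher and 8.34% lower. Kng2 stood at 1.16 ± 0.54 on the log2 scale, and at 1.44 with a call when WAT_5C replicate 2 was left out. Agt stood at 0.79 ± 0.70, Ace at 0.05 ± 0.25 and Agtr1a at 0.84 ± 0.54. Without WAT_5C replicate 1, Agtr1a was called at 1.12 ± 0.29, 1 of 8 members, beside 31.3% of all genes, 15.6% higher and 15.7% lower. Agt then stood at 0.35 ± 0.67 and Ace at -0.06 ± 0.26. Kng1 stood at 1.42 ± 1.75, a value that rests on WAT_5C replicate 2, since the other 3 cold WAT libraries hold 0, 0 and 1 counts. Without replicate 2 Kng1 turned to -4.145, a value near the floor, and 2 members were then called, 1 higher and 1 lower.

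**Figure D2:**
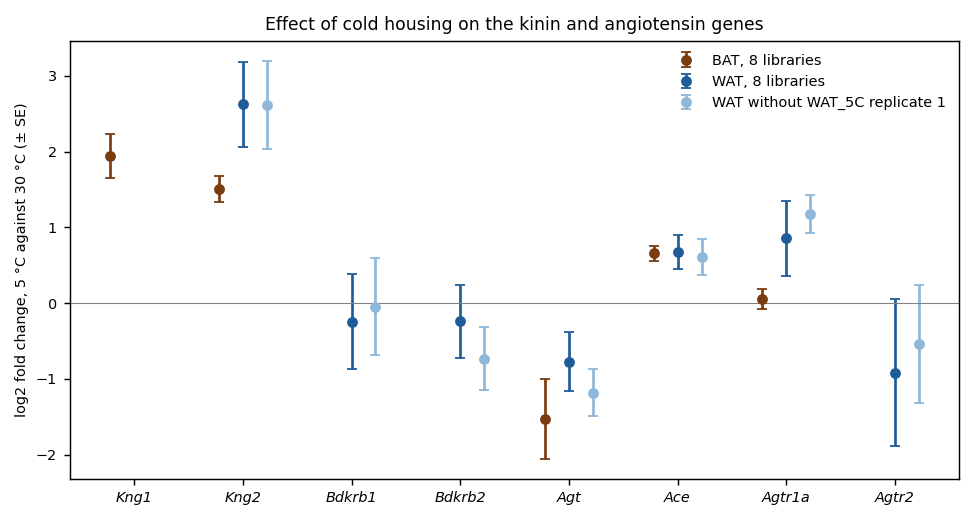
Log2 difference between 5 °C and 30 °C for each tested member in BAT and in WAT, with bars of ± SE; WAT is drawn with all 4 cold libraries and without WAT_5C replicate 1. Kng2 and Ace lie above 0 in both tissues, Agt lies below 0 in both, and Agtr1a lies near 0 in BAT (0.05) and at 0.86 or 1.18 in WAT.

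Between the tissues, Kng2 was the member that edgeR called higher in BAT with all libraries. At 30 °C Kng2 was 8.19 ± 0.48 log2 units higher in BAT than in WAT. Agt (-1.54 ± 0.50), Ace (-1.43 ± 0.18), Agtr1a (-1.22 ± 0.39), Agtr2 (-4.31 ± 1.0), Bdkrb1 (-3.50 ± 0.83) and Bdkrb2 (-2.19 ± 0.68) were all lower in BAT. Those 7 of 8 members were called by edgeR, 1 higher and 6 lower, and Kng1 was not (2.99 ± 1.41). Kng1 was called higher in BAT by DESeq2 (3.045) and limma-voom (3.811). It passed the filter through BAT, so these calls are no support for the direction. Of all genes 69.8% were called, 34.5% higher and 35.3% lower. Agt was the member whose groups overlapped, and the share of all genes with overlapping groups was not counted. Bdkrb1, Bdkrb2 and Agtr2 entered the tissue tests at both temperatures through their WAT counts, so the filter set their direction and the count of lower members is no support for one. All 6 fibroblast and preadipocyte markers were also lower in BAT, at 578 to 708 CPM in sum against 1210 to 2080 CPM in WAT_30C, and all 8 endothelial markers were higher. The part of cell makeup in the tissue differences was not tested.

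At 5 °C, 6 of 8 members were called between the tissues, 1 higher and 5 lower in BAT, beside 72.4% of all genes, 31.8% higher and 40.5% lower. Kng2 was higher in BAT by 7.03 ± 0.44, and Agt (-2.33 ± 0.52), Ace (-1.47 ± 0.18), Agtr1a (-2.05 ± 0.39), Agtr2 (-4.62 ± 1.16) and Bdkrb1 (-3.50 ± 0.91) were lower, where the filter set the direction of Agtr2 and Bdkrb1. Bdkrb2 was not called (-0.92 ± 0.64, and -0.45 ± 0.63 without WAT_5C replicate 1). Groups did not overlap for Kng2, Bdkrb1, Agt and Ace, and without WAT_5C replicate 1 also for Agtr1a and Agtr2. The share of all genes with such groups was not counted here either. Without that library 6 of 8 were again called, with Agtr1a at -2.40 ± 0.22, Agtr2 at -5.02 ± 0.97 and Agt at -1.94 ± 0.50, beside 76.2% of all genes, 34.0% higher and 42.2% lower. Kng1, which passed the filter through BAT, stood at 1.57 ± 1.12, and almost all its WAT_5C counts are those of replicate 2. It was called with limma-voom (5.578) and, by edgeR, without replicate 2 (7.136). Library totals move the median of all genes by -0.85 at 30 °C and -0.93 at 5 °C, and higher calls go from 49.4% to 16.3% and from 44.0% to 13.2% of all calls. For the difference of the temperature effects they go from 60.0% to 70.7%.

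The other genes of the pathways place these values in context. In BAT, 21 of the 34 tested differed with temperature by the edgeR test at an adjusted p under 0.05, 16 higher and 5 lower at 5 °C. Over all genes 59.5% were called, 29.2% higher and 30.3% lower, so the list's count of calls is near the background. The median log2 difference was 0.18 over the list against -0.05 over all genes. With library totals the same list gives 5 higher and 12 lower. The counts by role below rest on few genes and are descriptions against the same shares.

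Of the genes that form kinins, Prcp, a carboxypeptidase that activates prekallikrein, fell by 1.23 ± 0.11 on the log2 scale in BAT (edgeR adjusted p = 9.53e-06), from 30.9 ± 2.63 to 13.2 ± 2.02 CPM (SD, n = 4). Serping1, the C1 inhibitor that restrains kallikrein, stood at 0.06 ± 0.13 (edgeR adjusted p = 0.711). F12 and Klk1 had too few BAT counts to be tested. So 1 of the 2 tested genes of kinin formation was lower, and none was higher.

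Of the genes that break kinins down, 5 of 8 rose in cold BAT and none fell, beside 59.5% of all genes called, 29.2% higher and 30.3% lower. Cpn2, the regulatory subunit of carboxypeptidase N, which trims kinins in plasma, rose by 1.51 ± 0.17 on the log2 scale (edgeR adjusted p = 5.44e-05). Cpn1, the gene of the other subunit, had 25 summed counts in BAT_30C and 11 in BAT_5C, too few to be tested. Cpm, a membrane carboxypeptidase that makes B1 receptor ligands, rose by 1.88 ± 0.15 (edgeR adjusted p = 5.33e-06), from 4.95 ± 1.05 to 18.1 ± 0.719 CPM (SD, n = 4). Xpnpep1, an aminopeptidase, was higher by 0.60 ± 0.09 (edgeR adjusted p = 0.00027), and by 0.221 with library totals. Mme, the endopeptidase neprilysin, was higher by 0.39 ± 0.08 (edgeR adjusted p = 0.00176) but stands at 0.005 with library totals, and it was not called when all 16 libraries shared one fit. Ece1, endothelin-converting enzyme, was higher by 0.36 ± 0.07 (edgeR adjusted p = 0.00123) but stands at -0.024 with library totals.

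Of 11 tested genes of angiotensin formation and breakdown, 6 rose and 1 fell in cold BAT, 7 of 11 called beside 59.5% of all genes. Ctsd, a lysosomal protease that can cut angiotensinogen, rose by 1.63 ± 0.06 (edgeR adjusted p = 6.85e-08). Nln (0.46) and Prep (0.40), peptidases of angiotensin fragments, were also called higher, but stand at 0.081 and 0.015 with library totals, where neither was called, and Nln was not called when all 16 libraries shared one fit. Prep was not called in the 4 BAT libraries whose labels match (0.294). Rnpep (0.25, and -0.128 with library totals), Enpep (0.25, and -0.137) and Atp6ap2, the prorenin receptor gene (0.21, and -0.171), reverse with that scaling, and the call on Enpep was lost without any of 5 of the 8 BAT libraries. Thop1 fell by 0.55 (edgeR adjusted p = 0.000506). Ren1, the renin gene, had 0 counts in the BAT_30C libraries and was not tested in BAT.

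Of the receptors and their partners, Mas1, which encodes the receptor for angiotensin 1-7, had 32, 24, 37 and 19 counts in BAT_30C and 9, 4, 2 and 3 in BAT_5C. The log2 difference was -2.25 ± 0.48. Mas1 passed the filter through the warm libraries, which favours a lower value, so its call is no support for the direction. Agtrap (-0.12) and Mtus1 (0.13), which encode proteins that bind the AT1 and AT2 receptors, did not pass. Nr3c2, the mineralocorticoid receptor gene, fell by 0.78 ± 0.13 (edgeR adjusted p = 0.000511), from 16.8 ± 2.13 to 9.78 ± 1.34 CPM (SD, n = 4).

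Of 9 genes that carry Gq-coupled receptor signals, 5 rose in cold BAT and 1 fell, 6 of 9 called beside 59.5% of all genes. Plcb1, a phospholipase C, rose by 0.88 ± 0.10 (edgeR adjusted p = 5.62e-05). Gnaq (0.32), Gna11 (0.28), Plcb4 (0.23) and Nos3 (0.31) were also called, but with library totals they stand at -0.067, -0.105, -0.155 and -0.076, and the call on Plcb4 was lost without BAT_5C replicate 4. Arrb1, an arrestin that silences active receptors, fell by 0.65 ± 0.07 (edgeR adjusted p = 3.6e-05).

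**Figure D3:**
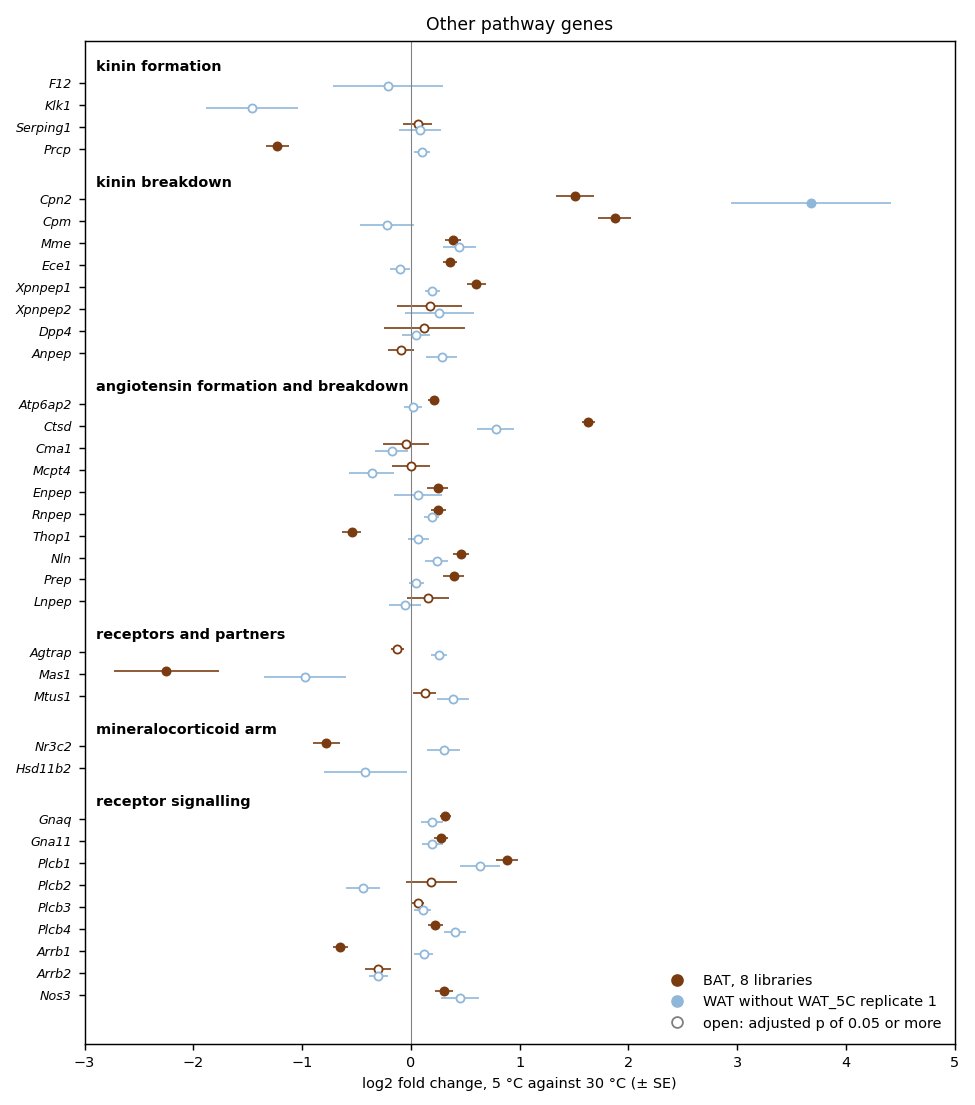
Log2 difference between 5 °C and 30 °C, with bars of ± SE, for the tested pathway genes, apart from 1 not reported here, in BAT and in WAT, where WAT leaves out WAT_5C replicate 1; filled points have an edgeR adjusted p under 0.05 and open points do not. Cpm (1.88), Ctsd (1.63) and Cpn2 (1.51) lie highest and Mas1 (-2.25) lowest in BAT, and Cpn2 (3.68) is the filled point of WAT.

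In WAT, edgeR called 0 of the 37 pathway genes tested, beside 0.0632% of all genes, with 12 at an unadjusted p under 0.05. DESeq2 called 4, beside 843 higher and 276 lower of all 18975 genes. Limma-voom called 6, beside 1392 higher and 876 lower. Without WAT_5C replicate 1 edgeR called 1, Cpn2, at a log2 difference of 3.68 ± 0.74 (adjusted p = 0.0493, against 0.11 with that library and 2.82e-05 to 0.482 over its alternatives), and 14 had an unadjusted p under 0.05. Of all genes 2.11% were called without that library. Cpn2 passed the WAT filter through the cold libraries, with 12, 6, 3 and 5 counts in WAT_30C, which favours a higher value. Klk1, tissue kallikrein, stood at -1.77 ± 0.57 (edgeR adjusted p = 0.214) and its groups did not overlap. It reached the WAT filter's minimum through the warm libraries, which favours a lower value. Ctsd stood at 1.09 ± 0.29 (edgeR adjusted p = 0.174), and at 0.78 ± 0.17 without WAT_5C replicate 1 (0.0623).

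The WAT effect minus the BAT effect was called by edgeR for 6 of 37 pathway genes, 5 higher and 1 lower, beside 20.8% of all genes. Prcp (1.2 ± 0.23, adjusted p = 0.00174), Thop1 (0.65 ± 0.13, adjusted p = 0.00283), Nr3c2 (1.21 ± 0.22, adjusted p = 0.0012) and Arrb1 (0.73 ± 0.14, adjusted p = 0.0016), each lower in cold BAT, had a higher effect in WAT. Cpm had a lower one (-2.24 ± 0.35, adjusted p = 0.000477). Cpn2 differed by 2.14 ± 0.71 (edgeR adjusted p = 0.0454, 0.00499 to 0.101 over its alternatives), and its call was lost when any of 12 of the 16 libraries was left out, WAT_5C replicate 1 among them (0.0505). Without that library 10 of 37 were called, 5 in each direction, beside 31.3% of all genes. Added to the lower ones were Ece1 (-0.47), Xpnpep1 (-0.41), Ctsd (-0.86) and Prep (-0.35), and to the higher ones Agtrap (0.38).

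Between the tissues at 30 °C, 28 of 37 pathway genes were called by edgeR, 15 higher and 13 lower in BAT, beside 69.8% of all genes, 34.5% higher and 35.3% lower. Of the genes of kinin formation, Serping1 (-1.50 ± 0.17, edgeR adjusted p = 2.65e-06) and Prcp (-0.62 ± 0.16, edgeR adjusted p = 0.00277) were lower in BAT. F12, Klk1 and Hsd11b2 are also among the lower calls at both temperatures, but they entered through their WAT counts, so the filter set their direction. Klk1 had 2, 0, 0 and 4 counts in BAT_30C and 158, 70, 72 and 77 in WAT_30C, and at 5 °C its summed count scaled to library size was 50.4 times as high in WAT (95% Clopper-Pearson interval 8.84 to 2010, counting error only). Cpn2 was higher in BAT by 8.74 ± 0.58 (edgeR adjusted p = 1.65e-08), and Mme by 1.87 ± 0.20. Dpp4 (-4.00), Xpnpep2 (-2.91), the mast cell proteases Cma1 (-2.25) and Mcpt4 (-2.53), Plcb2 (-4.62) and Arrb2 (-2.26) were lower in BAT. The sum of 7 T and natural killer cell markers was at most 10.0 CPM in every BAT_30C library. It was at least 404 CPM in every WAT_30C library. Mast cell marker sums overlapped: BAT_30C libraries spanned 54.7 to 124 CPM, WAT_30C libraries 70.5 to 111 CPM. Of the 6 mast cell markers, edgeR called 1 higher and 4 lower in BAT. Macrophage marker sums did not overlap, with BAT_30C libraries at 137 to 157 CPM and WAT_30C libraries at 419 to 617 CPM. All 6 macrophage markers were called lower in BAT. The parts of these cell types in the differences were not tested. With library totals the pathway list gives 5 higher and 24 lower.

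At 5 °C, 29 of 37 were called by edgeR between the tissues, 16 higher and 13 lower in BAT, beside 72.4% of all genes, 31.8% higher and 40.5% lower, and with library totals 4 higher and 26 lower. Cpn2 stood at 6.60 ± 0.48 (edgeR adjusted p = 2.84e-08) and Prcp at -1.82 ± 0.16 (edgeR adjusted p = 1.97e-07). Without WAT_5C replicate 1, 29 of 37 were again called, 15 higher and 14 lower, beside 76.2% of all genes, 34.0% higher and 42.2% lower.

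The genes most like each member were ranked over 13991 genes and 16 libraries by the root mean square difference of log2(CPM + 0.5) after subtracting each gene's mean, a description with no test. The added 0.5 CPM narrows differences at low values. Kng2 was followed most closely by Cpn2, at 0.468 log2 units, where Kng2 itself varied by 3.42, and then by Pank1 (0.752) and Slc27a2 (0.775). Without WAT_5C replicate 1, Cpn2 was still the likest, at 0.48. Cpn2 was at 30.2, 32.8, 19.8 and 39.3 CPM in BAT_30C and 90.4, 77.8, 91.4 and 88.2 CPM in BAT_5C. In WAT it was at 0.115 CPM or less in the 30 °C libraries and at 0.816, 0.22, 1.91 and 0.639 CPM at 5 °C, the order of Kng2 and of the brown adipocyte marker sum. In BAT_5C the orders of Cpn2, Kng2 and the marker sum differ.

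Agt was most like Ccdc80 (0.37), Vnn3 (0.414) and Plagl1 (0.464). Ace was most like Gdf10 (0.233), Clmn (0.25) and Ms4a4a (0.26), and Agtr1a most like Apof (0.274), Igsf5 (0.284) and Wif1 (0.293). Apof, Igsf5 and Wif1 lie near the floor in BAT, where the added 0.5 CPM narrows their gap between the tissues. Apof averaged 0.0138 CPM in BAT_30C and 0.689 CPM in WAT_30C, against 12.7 and 29.4 CPM for Agtr1a, so their CPM levels are not alike. Agtr2 was most like Akr1c14 (0.37). The rankings for Ace and Agtr2 rest on the library set: without WAT_5C replicate 1, Plat came first for Ace and Pf4 for Agtr2.

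**Figure D4:**
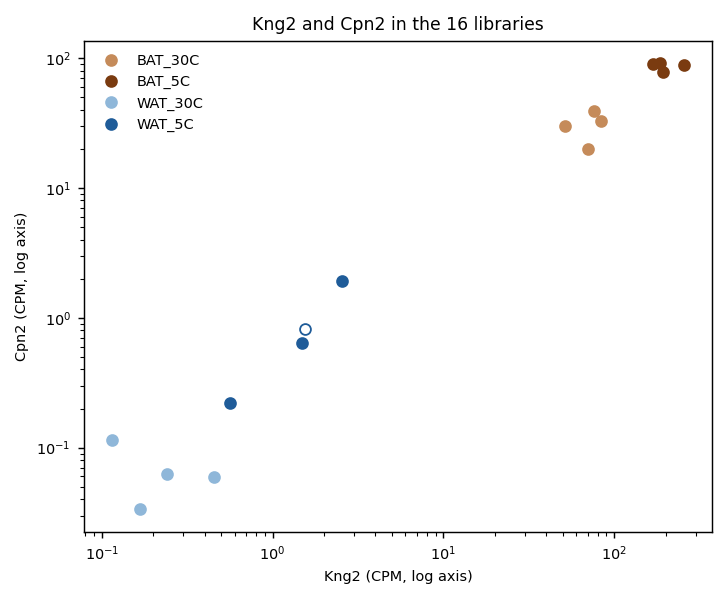
CPM of Kng2 (x axis) against CPM of Cpn2 (y axis) in the 16 libraries, both axes logarithmic, coloured by group, with an open circle for WAT_5C replicate 1. The BAT_5C libraries sit at the top right (77.8 to 91.4 CPM of Cpn2), the BAT_30C libraries below them (19.8 to 39.3 CPM) and all WAT libraries at 1.91 CPM of Cpn2 or less.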

How the data were processed

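Poly(A) RNA was measured in 16 libraries, 4 in each of 4 groups taken from the sample titles and housing temperatures. The raw counts, whole numbers per Ensembl gene, were deposited by the authors; Trim Galore and TopHat are named, without versions, in the submitters' processing notes. Which program counted the reads, with which strand setting, build and gene models, is not given in the sources used here. Symbols, lengths and coordinates came from GENCODE M21 (GRCm38), matched by identifier, and promoter sequences from RefSeq (GRCm38.p6); those of Kng1, Agtr1a and Bdkrb1 were not used here. Of 46078 identifiers, 45143 were named.

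Counts were filtered with filterByExpr (minimum count 10, minimum total 15), scaled by TMM and tested with the edgeR 4.0.16 quasi-likelihood test (R 4.3.3), BAT and WAT apart for temperature and all 16 libraries together for the tissues and for the difference of the temperature effects. P-values were adjusted by Benjamini-Hochberg over all genes tested, at a threshold of 0.05, with no covariates. Which groups reach the filter's minimum by themselves was counted for each listed gene. SE is the absolute log2 difference over the square root of F. CPM use TMM-scaled library sizes. A group with 0 counts was given a floor of 3 counts. Intervals at the 95% level cover counting error only.

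Members and lists were chosen with earlier results of these data known. The counts cover 1 listed pathway gene whose values are not reported here. Genes named are the members, the listed pathway genes and, for each member with a mean of at least 1 CPM in a group, the genes of likest pattern. Alternatives were RLE size factors, library totals, no filter, DESeq2 1.42.0, limma-voom (limma 3.58.1) with quality weights, a replicate block, all 16 libraries in one fit, a threshold of 0.01, leaving out each library, and the 4 BAT libraries whose labels match. All 24 within-group pairs of libraries exceeded sampling noise, with a chi-square over its degrees of freedom of at least 21.4. The scripts were tested on simulated data.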

Additional observations from a re-analysis of the deposited data

Results flagged for a closer look

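In 56 groups of 4 libraries examined, a library far from the other 3 was found in 4, where chance alone flags about 1 group in 20. These were Kng1 in WAT_5C, at 1.11 CPM in replicate 2, Agt in BAT_30C, at 13.0 CPM in replicate 1, Agt in BAT_5C, at 5.01 CPM in replicate 1, and Bdkrb1 in BAT_30C, at 0.0 CPM in replicate 4, where the other 3 libraries had 1 count each.

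The effect of temperature differed between WAT and BAT, by the edgeR test of the difference itself, for 6 of the 37 pathway genes tested, beside 20.8% of all genes. On the log2 scale, WAT minus BAT, the difference was 1.2 for Prcp, 2.14 for Cpn2, -2.24 for Cpm, 0.65 for Thop1, 1.21 for Nr3c2 and 0.73 for Arrb1. Without WAT_5C replicate 1, the library whose Xist and Y-linked counts go against its label, 31.3% of all genes were called, and the angiotensin receptor gene Agtr1a also differed (1.12), as did Ece1 (-0.47), Xpnpep1 (-0.41), Ctsd (-0.86), Prep (-0.35) and Agtrap (0.38), and Cpn2 no longer did. Agtr1a was a member picked on these data, so its value is a description.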

How the results depend on the processing

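In WAT, the number of members called between temperatures was 0 with edgeR, 1 with DESeq2, 2 with limma-voom, 2 with all 16 libraries in one fit, and 0 to 1 with a library left out. For pathway genes there it was 0, against 4 with DESeq2, 6 with limma-voom, 8 with all 16 libraries in one fit, and 0 to 1 with a library left out. Over all 18975 genes in WAT, edgeR called 12 higher and 0 lower, DESeq2 843 and 276, and limma-voom 1392 and 876. All 16 libraries in one fit gave 1439 higher and 148 lower of 19481. With a library left out the most were 355 higher and 53 lower, without WAT_5C replicate 1. In BAT the 4 libraries with matching labels gave 12 pathway genes in place of 21. Over all genes they gave 3351 higher and 2707 lower of 16535, in place of 4741 higher and 4906 lower of 16213. The difference of the temperature effects was called for 0 to 2 members and 5 to 10 pathway genes with a library left out. Of all genes it was called for 20.8% with every library and 31.3% without WAT_5C replicate 1. The cause of these shifts was not tested.

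Library totals reversed 25 pathway values. For cold BAT they were Ece1 -0.024, Atp6ap2 -0.171, Enpep -0.137, Rnpep -0.128, Gnaq -0.067, Gna11 -0.105, Plcb4 -0.155 and Nos3 -0.076. For the tissues at 30 °C they were Ece1 -0.44, Xpnpep1 -0.485, Ctsd -0.02, Rnpep -0.655, Nln -0.039, Gnaq -0.365 and Nos3 -0.254. For the tissues at 5 °C they were Cpm -0.224, Ece1 -0.192, Xpnpep1 -0.272, Atp6ap2 -0.746, Thop1 -0.707, Nln -0.222, Prep -0.499, Lnpep -0.47, Gnaq -0.489 and Plcb3 -0.076. Under that scaling the medians of all genes shift by -0.38, -0.85 and -0.93 in these comparisons. Of 2005 recomputed log2 values of 129 results, 1861 counted as unchanged. These kept their direction and side of the threshold or, where not called at first, changed sign by no more than their SE.

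Whether equal replicate numbers pair the libraries is unknown; the correlations of their residuals spanned -0.456 to 0.287, and the equal number was the best match in 9 of 48 cases. With the replicate block, members called were 4 for BAT, 0 for WAT, 0 for the difference of effects, 7 for the tissues at 30 °C and 6 at 5 °C, and pathway genes 20, 0, 6, 29 and 30. Over all genes the block gave 4524 higher and 4567 lower of 16213 for BAT, and 0 of 18975 for WAT. Of 19481 genes it gave 2047 higher and 1440 lower for the difference of effects. For the tissues it gave 6611 and 6799 at 30 °C and 6166 and 7721 at 5 °C. Depth limits the kinin receptors, Kng1 and Agtr2 most, since several libraries hold 0 to 5 counts of them.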
